A study of Rattus norvegicus with 26 samples.

Results

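Rat liver miRNAs were compared between the late hours (24 and 36 hours) and the early hours (6 and 12 hours) after removal of 2/3 of the liver, an operation called 2/3 partial hepatectomy (2/3 PH). The comparison used 12 of the 26 arrays of the series, chosen by their titles: 3 arrays at each of the 4 times, so 6 late arrays against 6 early arrays. A further 11 arrays, from rats at the same hours after removal of 1/3 of the liver (1/3 PH), were set beside them afterwards. No array of normal liver entered the comparison, but all 26 arrays served to pick the probes used for scaling. Of the 677 miRNAs on the array, 139 were tested, because the scanner software detected them on every array of at least 1 of the 4 time groups, and 101 of these were detected on all 12 arrays. All 12 rats were male Sprague-Dawley rats without a genetic change, and 1 rat gave 1 array. All had the same operation, and the regrowing right lobes were taken between 8 and 12 in the morning. The early livers are themselves operated livers, so a late value is set against an operated liver and not against a resting one. Times follow the array titles. For 6 of the 12 arrays the source label gives an hour that is 1 or 2 hours later (13, 14, 25, 26, 37 or 38). Nothing in the labels tells more about the rats than that they were separate, and the p-values measure the spread between these arrays.

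miRNAs are short RNAs that guide repressor proteins to messenger RNAs, mainly through pairing of the seed, which is bases 2 to 8 of the miRNA. Hepatocytes are quiescent in the adult liver, and after 2/3 PH they enter the cell cycle in a nearly synchronous wave, with growth signals first and DNA synthesis later. Several miRNA clusters are transcribed from genes that E2F and Myc switch on in cycling cells, and other miRNAs, such as those of the miR-34 and miR-26 families, are known to restrain cyclins and their kinases.

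The sequences below belong to the miRNAs on which the results turn, printed so that shared seeds can be seen. They come from the RefSeq annotation of the rat genome build GRCr8, which gave a mature sequence for 103 of the 139 tested miRNAs, with the older array names matched to the arm in current use. Capitals mark the seed. The first 5 share 1 seed and belong to 3 clusters.
miR-93: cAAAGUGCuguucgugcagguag
miR-106b: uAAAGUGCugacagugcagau
miR-17-5p: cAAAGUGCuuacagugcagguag
miR-20a: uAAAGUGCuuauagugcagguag
miR-20b-5p: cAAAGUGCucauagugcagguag
The next 4 are the other members of the same clusters that were higher late, with 3 further seeds.
miR-25: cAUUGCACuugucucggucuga
miR-18a: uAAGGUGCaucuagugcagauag
miR-19a: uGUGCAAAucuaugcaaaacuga
miR-19b: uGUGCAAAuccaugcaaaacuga
The next 3 share 1 seed but moved in opposite directions.
miR-15b: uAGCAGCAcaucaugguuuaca
miR-195: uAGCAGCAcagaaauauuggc
miR-497: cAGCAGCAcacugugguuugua
The last 6 are other miRNAs with a clear difference, of which miR-34a, miR-29b and miR-21 were higher late and miR-26a, miR-652 and miR-10a-5p were lower.
miR-34a: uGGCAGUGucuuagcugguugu
miR-29b: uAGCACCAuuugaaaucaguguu
miR-21: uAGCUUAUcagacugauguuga
miR-26a: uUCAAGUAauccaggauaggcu
miR-652: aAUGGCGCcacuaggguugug
miR-10a-5p: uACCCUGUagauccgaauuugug

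Of the 139 miRNAs, 51 (36.7%) differed between late and early livers, 28 (20.1%) higher and 23 (16.5%) lower at the late hours (limma, Benjamini-Hochberg adjusted p under 0.05 over all miRNAs tested). Without scaling between arrays the calls were 25 higher and 9 lower, with the software's total gene signal 26 and 34, and with the deposited log2 values 20 and 26. Among the 101 miRNAs detected on all 12 arrays 22 were called higher and 21 lower, and among the other 38 the split was 6 and 2. Most differences were small, and 9 of the 51 went beyond 2-fold, 6 higher and 3 lower. The median difference over all tested miRNAs was 0.07 on the log2 scale. In 24 miRNAs (17.3%) the 6 late values did not overlap the 6 early values, 16 above and 8 below. RNA came from whole liver lobes, so fewer cells of a type and less RNA per cell cannot be told apart. Levels below are log2 of the signal divided by the array's own 75th percentile, and levels of different miRNAs are not compared, because each has probes of its own. A signal under the lowest reliable probe signal of the array was set to that floor. It was highest on the second 6 hour array (-3.48 on the log2 scale against -4.86 to -4.07 on the others), which also had the fewest detected miRNAs (118, against 130 to 152), and 10 of the 51 had at least 1 of the 12 arrays at the floor.

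**Figure D1:**
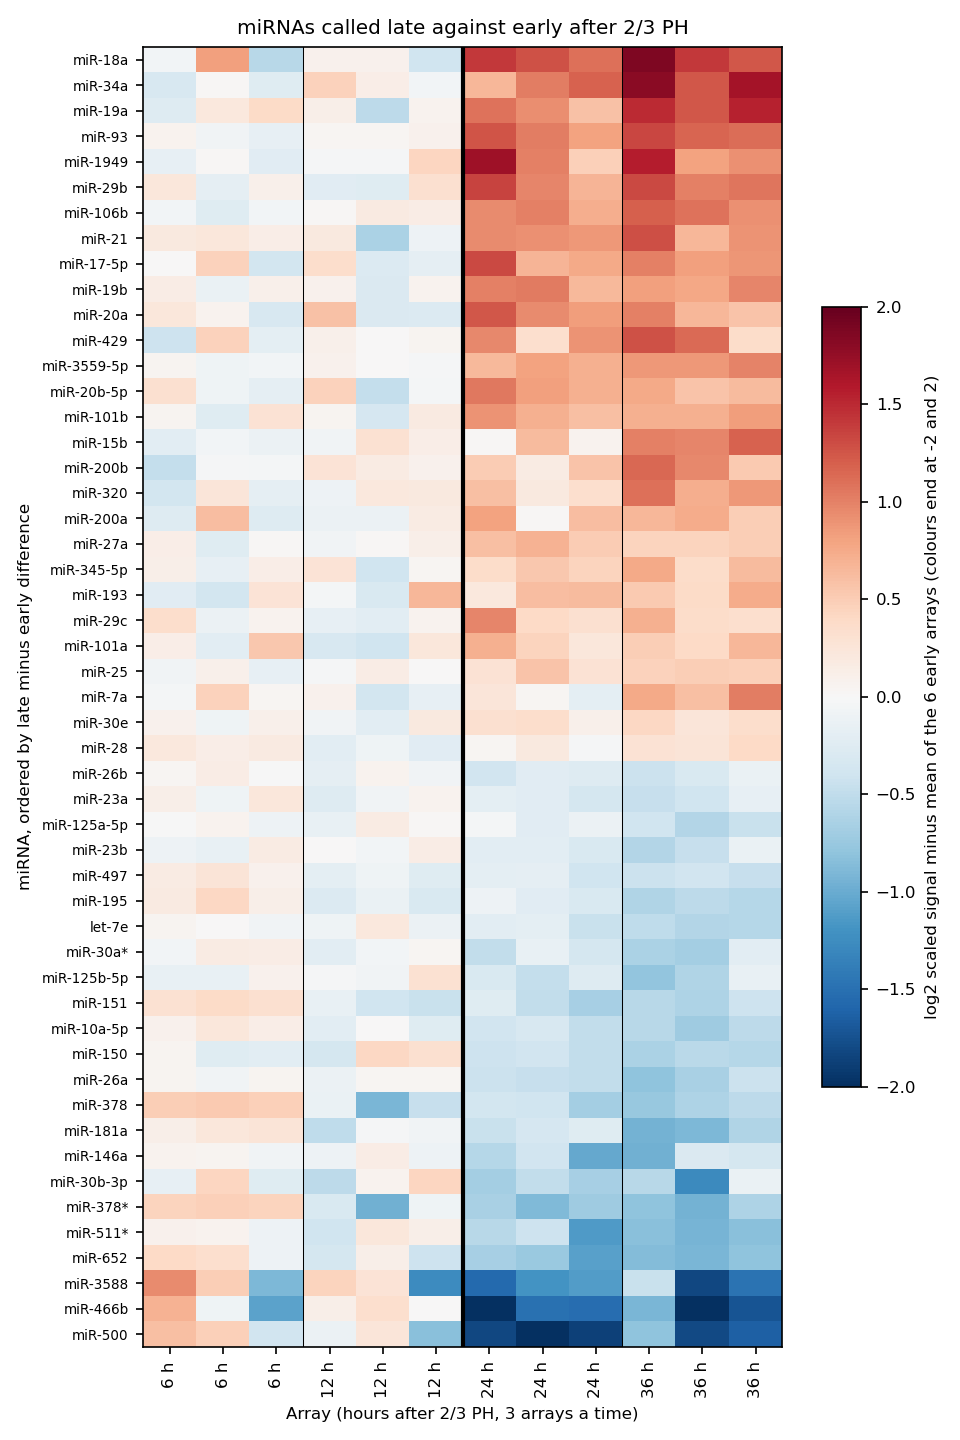
The 51 miRNAs called late against early after 2/3 PH, 1 row each, ordered by the late minus early difference, and the 12 arrays as columns (3 at each of 6, 12, 24 and 36 hours). Colour gives log2 scaled signal minus the mean of the 6 early arrays, red above and blue below, with colours ending at -2 and 2. The 28 rows at the top are red at the late hours and the 23 at the bottom blue, and miR-15b and miR-7a are red mainly at 36 hours.

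All members of the miR-106b~25 cluster were higher late. The 3 members lie on the minus strand of chromosome 12 within 472 bases (GRCr8, chr12:22156652-22157123), inside the bounds of Mcm7 (chr12:22155921-22163320), which encodes a subunit of the helicase that opens DNA for replication. Exon boundaries were not used here. The median log2 difference of the 3 was 0.99, and for none did the late and early values overlap. The levels of miR-93 were -3.34, -3.48 and -3.58 at 6 hours, -3.37, -3.38 and -3.32 at 12 hours, -2.16, -2.39 and -2.61 at 24 hours and -2.07, -2.25 and -2.30 at 36 hours. The 6 early arrays thus lay close together, the second of them at its floor, and every late array was above them. The late level was 2.17-fold the early level (log2 difference 1.12, SE 0.09, adjusted p = 1.31e-05). miR-106b ranged from -2.54 to -2.12 on the early arrays and from -1.57 to -1.10 on the late ones, a 1.98-fold difference (log2 0.99, SE 0.08, adjusted p = 1.31e-05). miR-25, which has another seed, rose less, by 1.35-fold (log2 0.43, SE 0.08, adjusted p = 0.00192), from -1.33 to -1.02 on the early arrays to -0.88 to -0.60 on the late ones. The call of miR-25 ended with the 75th percentile over all probes, with normexp and within each scan day.

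The miR-17~miR-92a cluster, which promotes cell growth in many dividing tissues, and its relative on the X chromosome, miR-106a~miR-363, were also higher late. Of the 6 tested members of miR-17~miR-92a, all on the plus strand of chromosome 15 (chr15:98587861-98588622), 5 were called higher and none lower. The median log2 difference of the 6 was 0.89. Among all tested miRNAs, 20.1% were called higher. miR-19b went from 0.34 to 0.78 on the early arrays to 1.27 to 1.67 on the late arrays, which is 1.84-fold (log2 0.88, SE 0.11, adjusted p = 0.000226). miR-19a had values of -3.96, -3.48, -3.32, -3.58, -4.22 and -3.63 on the early arrays, 2 of them at the floor, and of -3.12 to -2.16 on the late arrays (2.22-fold, log2 1.15, SE 0.16, adjusted p = 0.000549). The 2 miRNAs differ at 1 of 23 bases, and whether their probes separate them was not tested. miR-17-5p was higher by 1.87-fold (log2 0.90, SE 0.18, adjusted p = 0.0024) and miR-20a by 1.84-fold (log2 0.88, SE 0.18, adjusted p = 0.003). The late and early values of miR-17-5p, 2 of the early ones at the floor, did not overlap. In miR-20a the highest early value, 0.31 on the first 12 hour array, was above the lowest late value, 0.28. miR-18a was at the floor on all 6 early arrays, so that its late level was at least 2.61-fold higher. The software detected it on 7 of the 12 arrays, all 6 late ones among them. It passed the filter on detection only through the late arrays, where it is high, so it is no support for the count or the median of the cluster. Of the 3 members detected on all 12 arrays, miR-19b and miR-20a were called higher and miR-92a was not. miR-92a did not pass the test (log2 0.25, SE 0.12, adjusted p = 0.119), and its late values of 1.05 to 1.27 lay inside the early range of 0.63 to 1.26 but for the highest. From the X chromosome, miR-20b-5p was higher by 1.69-fold (log2 0.76, SE 0.16, adjusted p = 0.00351). RefSeq places the sequences of miR-17-5p, miR-19b and miR-92a in both clusters, and the array cannot tell from which of them these copies came. miR-363, the remaining member listed, was detected on none of the 12 arrays.

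Grouped by seed, the 5 tested miRNAs with the seed AAAGUGC, from all 3 clusters, were all called higher, with log2 differences of 0.76 to 1.12. All 5 kept a positive difference under every scaling tried. miR-17-5p, miR-20a and miR-20b-5p differ from each other at 2 of 23 bases, so their probes may share signal, which was not tested. The 5 seed groups with at least 3 tested members differed in their make-up: the AGCACCA group (miR-29) had 2 of 3 members higher, the GUAAACA group (miR-30) 1 of 3 higher, the GAGGUAG group (let-7) 1 of 8 lower, and the AGCAGCA group held members that moved both ways. Over all tested miRNAs 20.1% were called higher and 16.5% lower.

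**Figure D2:**
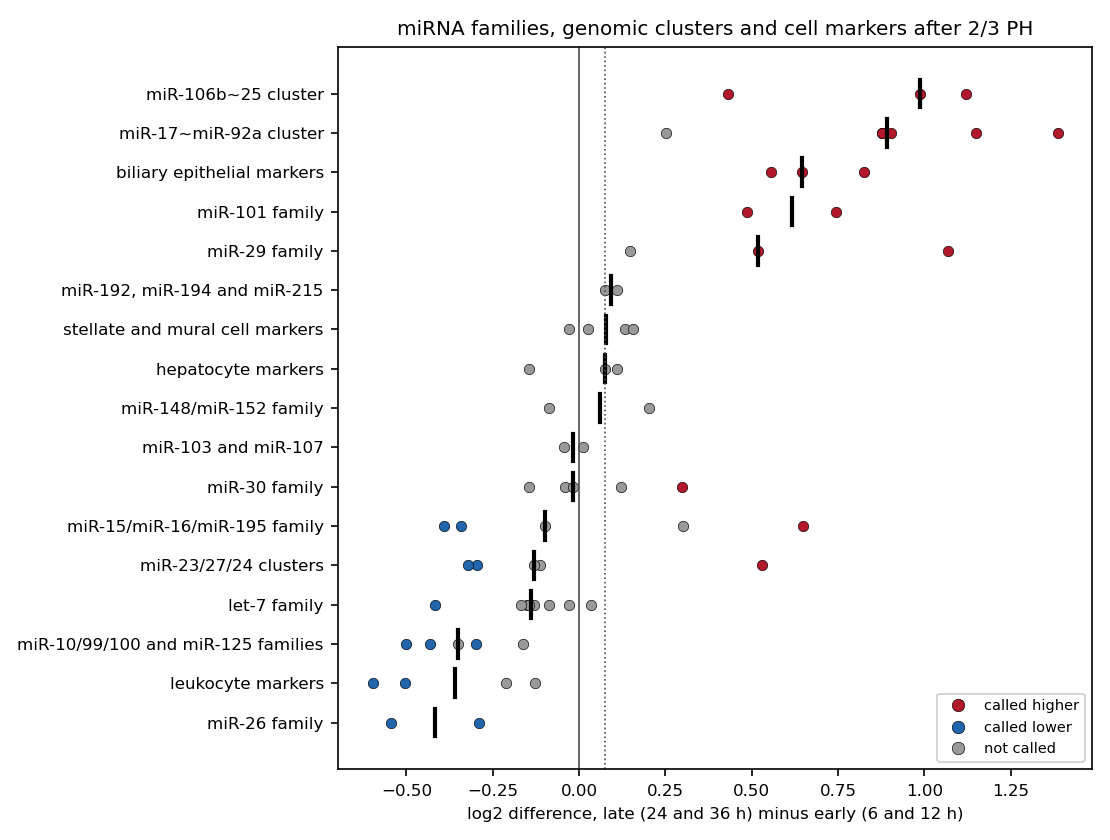
Log2 difference, late minus early, of each tested miRNA (points) in the listed families, genomic clusters and cell markers with at least 2 tested members, with the median of each list as a bar, 0 as a solid line and the median of all 139 tested miRNAs (0.07) as a dotted line. Red points are called higher, blue lower and grey not called. The miR-106b~25 and miR-17~miR-92a clusters sit farthest to the right and the miR-26 family, the leukocyte markers and the families of miR-10, miR-100 and miR-125 farthest to the left.

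Among miRNAs known to restrain the cell cycle, miR-34a, a direct target of the tumour suppressor p53, had the largest increase of any miRNA detected on all 12 arrays. Its levels were -2.15, -1.81 and -2.07 at 6 hours, -1.37, -1.69 and -1.88 at 12 hours, -1.16, -0.80 and -0.65 at 24 hours, and -0.03, -0.59 and -0.16 at 36 hours. No late value overlapped the early ones, and every 36 hour array was above every 24 hour array. The difference was 2.40-fold (log2 1.26, SE 0.14, adjusted p = 0.000148). The other 3 members of the miR-34 family on the array, miR-34b, miR-34c and miR-449a, were detected on none of the 12 arrays.

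The family of miR-15, miR-16 and miR-195, whose members repress cyclins D and E, moved both ways although its 5 tested members share 1 seed. miR-15b, which lies with a copy of miR-16 inside the bounds of Smc4 on chromosome 2 (chr2:155555197-155555364), a gene for a subunit of the condensin complex that packs chromosomes, was higher by 1.57-fold (log2 0.65, SE 0.12, adjusted p = 0.00192). Its early arrays held 0.09 to 0.60, the 24 hour arrays 0.31, 0.92 and 0.37, and the 36 hour arrays 1.30, 1.27 and 1.47. The 24 hour values overlapped the early ones and the 36 hour values did not. miR-16 had a difference of 0.30 (SE 0.11, adjusted p = 0.0543). By contrast, miR-195 and miR-497, neighbours on chromosome 10 (chr10:55450172-55450529), were lower by 0.39 (SE 0.08, adjusted p = 0.00237) and by 0.34 (SE 0.07, adjusted p = 0.00279) on the log2 scale. miR-195 had values of 0.75, 0.98 and 0.68 at 6 hours, 0.29, 0.44 and 0.26 at 12 hours, 0.47, 0.34 and 0.26 at 24 hours and -0.04, 0.05 and -0.01 at 36 hours. The 12 hour and 24 hour arrays therefore overlapped, and the spread of the early arrays came from the 6 hour arrays. miR-322 did not pass the test (log2 -0.10, SE 0.09, adjusted p = 0.435). The directions of miR-15b, miR-195 and miR-497 were the same under every scaling, and without scaling miR-195 and miR-497 no longer passed the test.

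Both members of the miR-26 family, which targets cyclin messenger RNAs and is abundant in resting liver, were lower late. miR-26a had levels of 1.50, 1.37 and 1.50 at 6 hours, 1.33, 1.48 and 1.49 at 12 hours, 1.02, 0.98 and 0.95 at 24 hours and 0.64, 0.80 and 1.01 at 36 hours. All late values were below all early ones, and the late level was 0.685 of the early level (log2 -0.55, SE 0.08, adjusted p = 0.000561). miR-26b was lower by 0.29 on the log2 scale (SE 0.08, adjusted p = 0.0139), with 1 late value of 0.63 above the lowest early value of 0.58. In the let-7 family, which marks differentiated cells, 1 of the 8 tested members was called lower and none higher, with a median log2 difference of -0.14. Over all tested miRNAs 16.5% were called lower, so this count does not exceed the share over all miRNAs. The member called was let-7e, which fell from between -0.80 and -0.47 to between -1.26 and -0.88 without overlap (log2 -0.42, SE 0.08, adjusted p = 0.00237). With the software's total gene signal 5 of the 8 were called lower, and without scaling none was and 3 had a positive difference.

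Among the miRNAs that give much of the array's signal in liver, miR-21 rose and miR-122 did not pass the test. miR-21, which is induced by growth and injury signals, had levels of 4.46, 4.49 and 4.40 at 6 hours, 4.46, 3.64 and 4.16 at 12 hours, 5.21, 5.18 and 5.13 at 24 hours and 5.55, 4.94 and 5.17 at 36 hours. Late and early values did not overlap, and the late level was 1.90-fold the early level (log2 0.93, SE 0.14, adjusted p = 0.000819). Under quantile normalization the difference of miR-21 was 0 by construction, since it held the same rank on every array. miR-122, which makes up most hepatocyte miRNA and supports lipid metabolism, ran from 7.36 to 7.58 on the early arrays and from 7.11 to 7.47 on the late ones (log2 -0.14, SE 0.08, adjusted p = 0.179). miR-192 and miR-194, the other hepatocyte markers, had differences of 0.11 and 0.07 (adjusted p = 0.217 and 0.455). The sum of the 3 hepatocyte markers, in scaled signal, ran from 171 to 197 on the early arrays and from 145 to 186 on the late ones. miR-22 had a difference of -0.11 (adjusted p = 0.243).

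The miR-29 family, which represses collagens and other matrix genes, was higher in 2 of 3 members. miR-29b was higher by 2.10-fold (log2 1.07, SE 0.15, adjusted p = 0.000549), and its early values of -0.91 to -0.35 were all below the late values of 0.02 to 0.69. miR-29c was higher by 0.52 (SE 0.14, adjusted p = 0.0139), and miR-29a, which differs from it at 1 of 22 bases, did not pass the test (log2 0.15, SE 0.11, adjusted p = 0.323). RefSeq places 1 copy of miR-29b beside miR-29a on chromosome 4 and another beside miR-29c on chromosome 13. Both members of the miR-101 family, which represses the chromatin enzyme Ezh2, were higher. miR-101b held -0.55 to 0.07 on the early arrays and 0.39 to 0.68 on the late ones (1.68-fold, log2 0.74, SE 0.12, adjusted p = 0.000899). miR-101a was higher by 0.49 (SE 0.16, adjusted p = 0.0347), and it lost its call when any of 9 of the 12 arrays was left out (adjusted p up to 0.0844) and under 6 of the 8 other ways of computing the level.

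In the miR-23/27/24 clusters, whose members act in lipid metabolism and vessels, 1 of 5 members was higher, which is the share of all tested miRNAs called higher (20.1%), and 2 were lower. miR-27a, a regulator of fat metabolism, rose from between -0.98 and -0.60 to between -0.30 and -0.05 without overlap (log2 0.53, SE 0.08, adjusted p = 0.000752). miR-23a, from the same cluster on chromosome 19, was lower by 0.30 (SE 0.09, adjusted p = 0.0261) and miR-23b, from the cluster on chromosome 17, by 0.32 (SE 0.09, adjusted p = 0.0212), and both lost the call without scaling. The miR-23a call was also lost when any of 7 of the 12 arrays was left out (adjusted p up to 0.068), and that of miR-23b for 2 of the 12 (up to 0.0563). miR-27b, which differs from miR-27a at 1 of 21 bases, had a difference of -0.11 (adjusted p = 0.341), and miR-24, which has a copy in each cluster, of -0.13 (adjusted p = 0.236). In the miR-30 family, 1 of 5 tested members was higher, again the share over all miRNAs. This was miR-30e (log2 0.30, SE 0.09, adjusted p = 0.0261), and the median was -0.02. The miR-30e call was lost under 6 of the 8 other ways of computing the level, no scaling among them, and when any of 7 of the 12 arrays was left out.

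Of the families of miR-10, miR-100 and miR-125, whose genes lie in the Hox clusters or beside let-7 genes, 3 of 5 tested members were lower and none higher, with a median of -0.35. Among all tested miRNAs, 16.5% were called lower. miR-10b and miR-99b were detected on some arrays but not tested. miR-10a-5p held -0.31, -0.18 and -0.27 at 6 hours, -0.62, -0.39 and -0.65 at 12 hours, -0.78, -0.73 and -0.89 at 24 hours and -0.96, -1.12 and -0.93 at 36 hours. The lowest early values were at 12 hours, and no late value overlapped them (log2 -0.50, SE 0.07, adjusted p = 0.000746). miR-125b-5p was lower by 0.43 (SE 0.12, adjusted p = 0.0194) and miR-125a-5p by 0.30 (SE 0.08, adjusted p = 0.0118). Its gene and that of let-7e together span 506 bases of the plus strand of chromosome 1 (chr1:67350243-67350748). Both miR-125a-5p and let-7e were lower, and the other arm of the hairpin, miR-125a-3p, had a difference of 0.47 (adjusted p = 0.429). However, no member of this group passed the test without scaling or with the 75th percentile over all probes. miR-181a, the only 1 of the 4 listed miR-181 members that was detected, was lower by 0.58 (SE 0.10, adjusted p = 0.00192). miR-103 and miR-107, which act on insulin signalling, had differences of -0.05 and 0.01 (adjusted p = 0.576 and 0.915). miR-221 (0.17, adjusted p = 0.373), miR-130a (0.11, adjusted p = 0.426), miR-152 (0.20, adjusted p = 0.426) and miR-148b-3p (-0.09, adjusted p = 0.708) did not pass the test either.

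**Figure D3:**
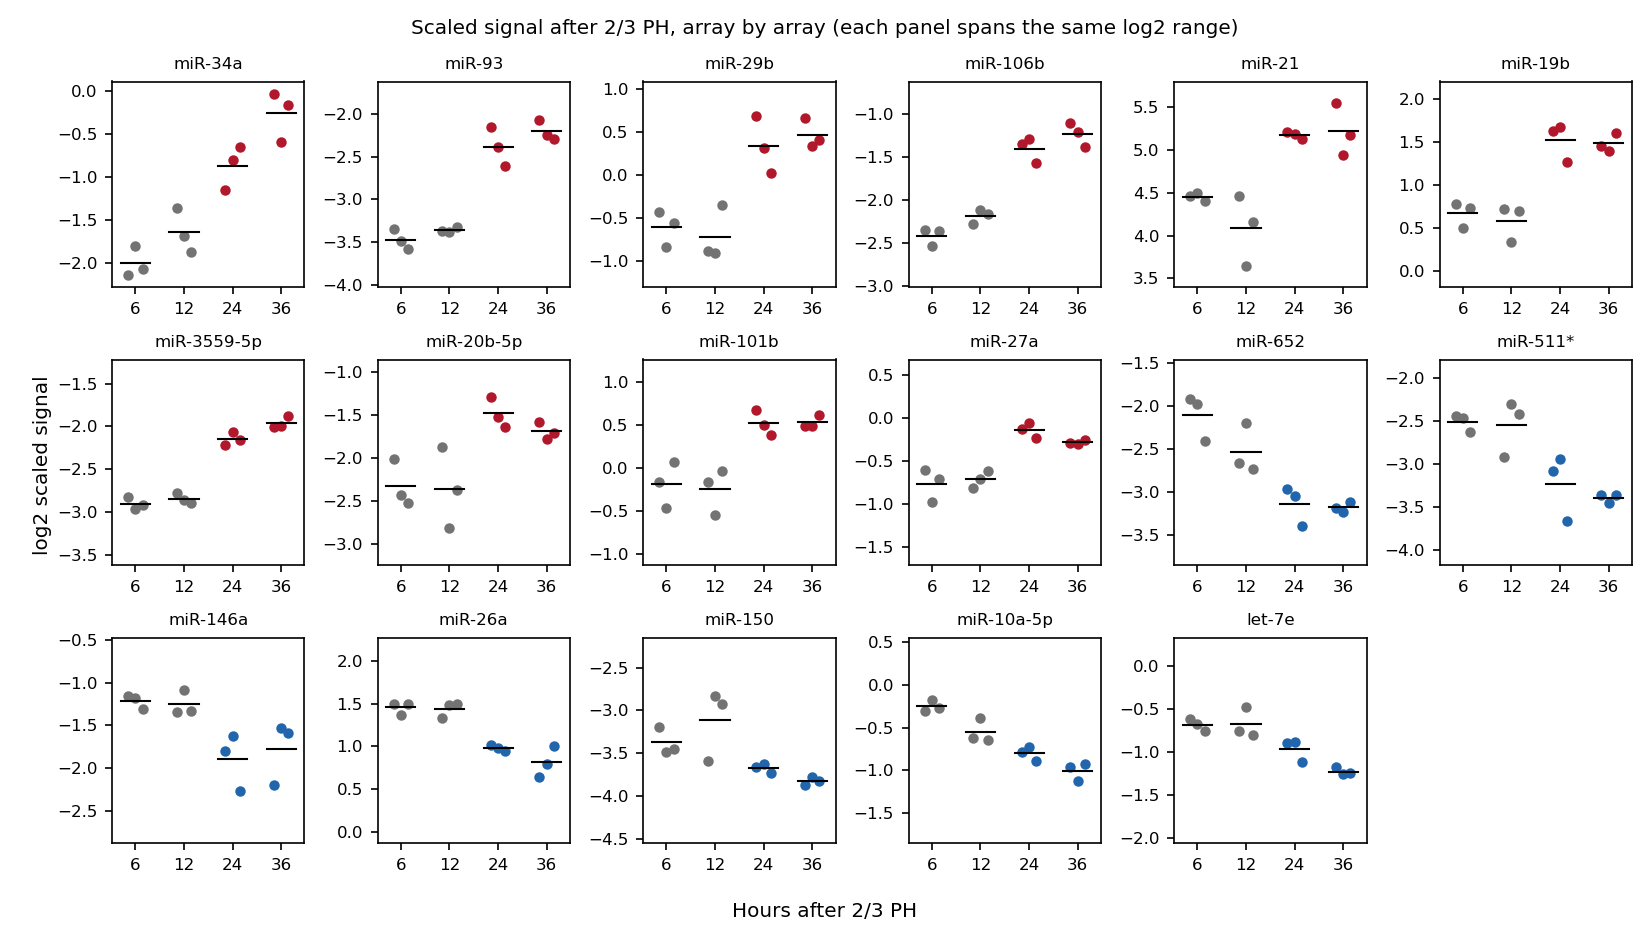
Log2 scaled signal (vertical axes) on each of the 12 arrays of 2/3 PH by hour (horizontal axes) for the 10 largest increases and 7 decreases among miRNAs detected on all 12 arrays, called, and without overlap of late and early values. Points are single arrays (grey early, red or blue late), and bars are the means of 3 arrays. Each panel spans 2.4 log2 units, so slopes can be compared between panels while levels cannot. miR-34a stepped up again between 24 and 36 hours, from a mean of -0.87 to -0.26, whereas miR-27a, miR-19b and miR-101b sat at similar levels at both late times.

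Some markers of other cell types were called and others were not. Of the leukocyte markers, 4 of 6 on the array were tested, 2 were lower, and none was higher. Over all tested miRNAs 16.5% were called lower. miR-146a, which damps inflammatory signalling, was lower by 0.60 (SE 0.14, adjusted p = 0.00796), with early values of -1.34 to -1.09 and late values of -2.26 to -1.53. miR-150, a lymphocyte miRNA, was lower by 0.51 (SE 0.13, adjusted p = 0.0103), with early values of -3.59 to -2.83, 1 of them at the floor, and late values of -3.87 to -3.62. In neither did late and early values overlap. Both calls ended without scaling, with the 75th percentile over all probes and with scan day as a block. The myeloid miR-223 had a difference of -0.21 (adjusted p = 0.227) and miR-142-3p, found in all blood cells, of -0.13 (adjusted p = 0.644), while miR-142-5p was detected on no array. The summed scaled signal of the 4 tested markers ran from 0.851 to 1.13 on the early arrays and from 0.672 to 0.879 on the late ones. miR-511*, the partner strand of a miRNA whose gene lies in the macrophage mannose receptor gene, was lower by 0.78 (SE 0.14, adjusted p = 0.00193), from between -2.92 and -2.30 to between -3.66 and -2.94. The part that a change in blood cells had in these values was not tested.

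Of the 5 biliary epithelial markers, miR-200c and miR-141 were detected on no array, and the other 3 were all called higher. Among all tested miRNAs, 20.1% were called higher. Of these, miR-200b was detected on all 12 arrays and miR-200a and miR-429 on 10. miR-200b, which keeps epithelial cells from losing their character by repressing Zeb1, was higher by 0.65 (SE 0.13, adjusted p = 0.00308). Its early values were -2.94 to -2.19, its 24 hour values -1.96, -2.30 and -1.90 and its 36 hour values -1.32, -1.50 and -1.94. miR-429 was higher by 0.83 (SE 0.20, adjusted p = 0.0085) and miR-200a by 0.56 (SE 0.18, adjusted p = 0.0376), with 2 and 4 early arrays at the floor. The call of miR-200a was lost without scaling, with scan day as a block and when any of 9 of the 12 arrays was left out. That of miR-429 was lost with the 75th percentile over all probes and with scan day as a block. That of miR-200b was lost with the same percentile, with normexp and within each scan day. With that percentile or with normexp none of the 3 was called. The summed signal of the 3 ran from 0.228 to 0.359 early and from 0.345 to 0.651 late, and its part in other results was not tested. miR-126 of endothelial cells (log2 -0.11, adjusted p = 0.236), miR-451 of red cells (0.04, adjusted p = 0.915) and the 4 tested stellate and mural cell markers (-0.03 to 0.16) did not pass the test. Their summed signals ran from 2.33 to 2.74, 0.21 to 0.782 and 1.29 to 1.51 on the early arrays and from 2.14 to 2.57, 0.212 to 0.473 and 1.23 to 1.97 on the late ones. Of these lists, miR-144 and miR-145 were detected on no array. All 4 muscle markers and both neural markers were detected on none of the 12 arrays.

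Of the 51 miRNAs, 16 belonged to no list, 7 higher and 9 lower. miR-3559-5p had a small standard error. Its early values of -2.96 to -2.78 and its late values of -2.22 to -1.88 gave a 1.76-fold difference (log2 0.81, SE 0.06, adjusted p = 1.31e-05). miR-1949 was higher by 2.11-fold (log2 1.08, SE 0.21, adjusted p = 0.00247), with late values that spread from -3.03 to -1.81. The largest decreases were those of miR-500 (0.314-fold, log2 -1.67, SE 0.25, adjusted p = 0.000752), miR-466b (0.318-fold, adjusted p = 0.00192) and miR-3588 (0.414-fold, adjusted p = 0.0303). Their arrays scattered widely and overlapped. miR-500 had 36 hour values of -2.48, -3.49 and -3.31, the first of them above the lowest early value of -2.51, and miR-466b was at the floor on 4 late arrays. miR-3588 lost its call when any of 8 of the 12 arrays was left out.

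miR-652 fell from values of -2.73 to -1.91 to values of -3.40 to -2.97 without overlap (0.556-fold, log2 -0.85, SE 0.13, adjusted p = 0.000801). Its other arm, miR-652*, had values of -2.33 to -2.11 at 24 hours and -1.59 to -1.38 at 36 hours and did not pass the late test (log2 -0.19, adjusted p = 0.157). Such arm pairs, cut from 1 hairpin, could be compared in 13 cases. Both arms of miR-378, whose gene lies in the metabolic regulator gene Ppargc1b, were lower: miR-378 by 0.56 (SE 0.13, adjusted p = 0.00559) and miR-378* by 0.77 (SE 0.14, adjusted p = 0.00192). miR-378 held -0.23, -0.20 and -0.25 at 6 hours and -0.86, -1.64 and -1.18 at 12 hours, against -1.49 to -1.09 at the late hours. The 6 hour arrays and the first 12 hour array were thus above all late arrays, and the other 12 hour arrays were not. In miR-30a the main arm had a difference of 0.12 (adjusted p = 0.197) and the partner arm miR-30a* was lower by 0.42 (SE 0.11, adjusted p = 0.00919). Whether the arms differ in their change was not tested.

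Each late time was also set against the 6 early arrays, which both comparisons share. At 24 hours 27 miRNAs (19.4%) were called, 17 higher and 10 lower, and at 36 hours 52 (37.4%), 30 higher and 22 lower. For miR-93 the log2 differences were 1.03 at 24 hours (adjusted p = 0.000201) and 1.21 at 36 hours (adjusted p = 3.89e-05). For miR-106b they were 0.90 and 1.08, and for miR-34a 0.96 (adjusted p = 0.0042) and 1.57 (adjusted p = 0.000131). miR-21 was as far from the early level at 24 hours (0.90) as at 36 hours (0.95). The values of miR-15b were 0.24 (adjusted p = 0.287) and 1.06 (adjusted p = 0.000591) and those of miR-7a 0.03 (adjusted p = 0.89) and 0.80 (adjusted p = 0.00346). Among the decreases, miR-26a was lower by 0.46 at 24 hours and by 0.63 at 36 hours, let-7e by 0.28 (adjusted p = 0.0699) and 0.55 (adjusted p = 0.00226), and miR-652 by 0.83 and 0.86. The split at 24 hours was 16 higher and 2 lower without scaling, 19 and 27 with the software's total gene signal and 0 and 3 with the 75th percentile over all probes. At 36 hours it was 22 and 8 without scaling, 21 and 3 with the percentile over all probes and 17 and 24 with the deposited values. Leaving out the first 36 hour array took the count at 36 hours to 33.

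Scan day was tied in part to the late and early hours, and slide wholly. Of the 3 scan days, the first held 4 early arrays and the 3 arrays at 24 hours, the second only 2 arrays at 36 hours, and the third 2 early arrays and 1 array at 36 hours. Within the first day, 50 of the 51 miRNAs kept their sign (the exception was miR-7a, at -0.002), and 24 of all tested miRNAs were called. Within the third day all 51 kept their sign and none was called (22 at an unadjusted p under 0.05), with 1 late array against 2 early ones. The arrays of each day are among those that gave the 51 calls, so the signs kept within a day are no separate support. With scan day as a block 38 of the 51 were called. The second day held no early array, so under the block its 2 arrays at 36 hours do not enter the late difference. For miR-93 the within-day differences were 1.01 and 1.16, for miR-34a 0.88 and 1.81, for miR-26a -0.44 and -0.49 and for miR-652 -0.96 and -0.54. At 36 hours, the block left 7 calls of 52, all higher, and the difference there rests on the 1 array at 36 hours of the third day. Each of the 6 slides held only early or only late arrays of 2/3 PH, so slide could enter only as a random block, under which 46 of the 51 were called. No late array could be set against an early array of its own slide, and the within-day differences are also between slides.

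The same late and early hours after 1/3 PH, in which only the left lateral lobe is removed, were set beside these differences. The 11 arrays of 1/3 PH (2 at 6 hours and 3 at each other time) share no rat with those of 2/3 PH, and the rats and the hours of harvest were otherwise alike. The second 12 hour array of 1/3 PH stood apart, with 91 detected miRNAs and a total signal of 11768 units against 118 to 155 miRNAs and 38371 to 58293 units on the other 22 arrays, and counts are given with and without it. After 1/3 PH 14 miRNAs (10.1%) differed between late and early hours, 10 higher and 4 lower. Of these, 12 (85.7%) were called in the same direction after 2/3 PH, and they make up 23.5% of the 51. Without the dim array 12 were called, of which 11 (91.7%) were called alike after 2/3 PH, 21.6% of the 51. Increases shared with and without that array include miR-29b (0.74 after 1/3 PH, adjusted p = 0.00239), both miR-101 members and miR-106b, and shared decreases miR-652 (-0.81, adjusted p = 0.0042), miR-500, miR-466b and let-7e. The calls of miR-19b and miR-29c after 1/3 PH ended without it (adjusted p = 0.0976 and 0.0775). The 14 calls after 1/3 PH became 9 and 5 without the first or the second 6 hour array, 6 and 8 without the first or the second 24 hour array and 7 without the third 36 hour array, and 1 without scaling. The difference itself between the operations was tested in 1 fit of the 23 arrays, and 12 of 139 miRNAs (8.63%) passed, 10 with a higher and 2 with a lower late minus early value after 2/3 PH. All 12 were also called without the dim array, among 17 calls. With the deposited values the split was 2 higher and 3 lower.

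miR-93 had the smallest p between the operations. After 1/3 PH its values were -3.36 and -3.09 at 6 hours, -3.22, -3.21 (the dim array, at its floor) and -3.08 at 12 hours, -3.08, -3.29 and -3.40 at 24 hours and -3.18, -3.44 and -3.46 at 36 hours. Late and early values overlapped (log2 difference -0.11, SE 0.10), against 1.12 after 2/3 PH, a difference between the operations of 1.23 (SE 0.13, adjusted p = 5.87e-06). miR-15b held 0.17 to 0.45 early and -0.03 to 0.31 late after 1/3 PH (log2 -0.16, SE 0.10) and differed by 0.81 (SE 0.14, adjusted p = 0.00185). miR-18a differed by 1.63 (SE 0.36, adjusted p = 0.0118), a value that rests on floor values, on all 6 early arrays of 2/3 PH and on 5 early and 3 late arrays of 1/3 PH. miR-17-5p, with a difference of 1.08 (adjusted p = 0.0147), was likewise at the floor on 4 early and 3 late arrays of 1/3 PH. miR-106b rose after both operations, by 0.42 after 1/3 PH (adjusted p = 0.0289) and by 0.57 more after 2/3 PH (SE 0.16, adjusted p = 0.036). That difference of miR-106b between the operations was lost under 6 of the 8 other ways of computing the level, with scan day as a block, and when any of 13 of the 23 arrays was left out, either 6 hour array of 1/3 PH among them. Among the decreases, miR-26a had a difference of -0.02 (SE 0.09) after 1/3 PH and was lower by a further 0.52 after 2/3 PH (SE 0.12, adjusted p = 0.0129). For miR-29b (0.33, SE 0.18, adjusted p = 0.388) and miR-652 (-0.04, SE 0.22, adjusted p = 0.944) no difference between the operations passed the test. Leaving out either of the 2 arrays at 6 hours after 1/3 PH took the 12 calls to 6, and no scaling, which moved the median difference between the operations over all miRNAs from 0.06 to -0.21, left none (3 at an unadjusted p under 0.05).

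**Figure D4:**
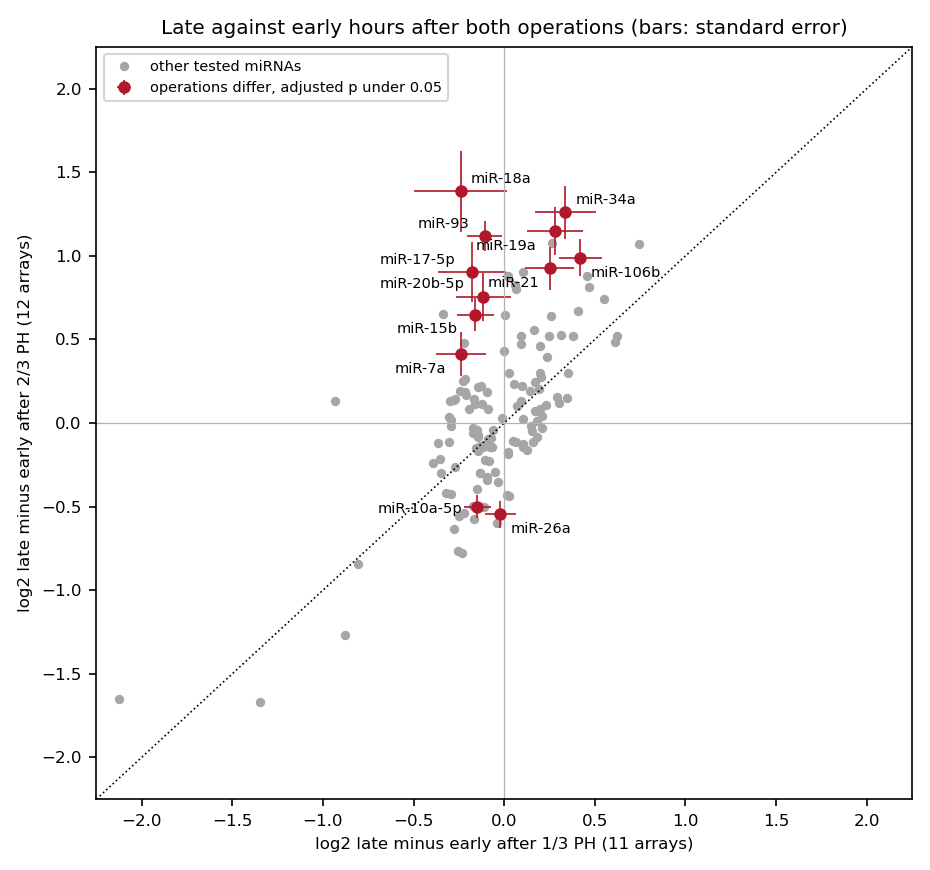
Log2 difference, late minus early, after 1/3 PH (horizontal axis, 11 arrays) and after 2/3 PH (vertical axis, 12 arrays) of the 139 tested miRNAs, with the dotted line marking equal differences. Red points, with standard errors as bars, are the 12 miRNAs whose difference between the operations passed the test. The 10 above the line, of which miR-93 had the smallest p, had the higher value after 2/3 PH, and miR-26a and miR-10a-5p lie below it.

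How levels were computed changed the number of calls and, as given above, their split into higher and lower. The 51 were chosen on these same arrays, so the signs they kept are no separate support. All 51 differences kept their sign under 7 of the 8 other ways of computing levels, and 50 did under quantile normalization, where miR-21 was at 0. With normexp background correction 2 of the 51 passed the test, miR-21 and miR-19b, with the 75th percentile over all probes 14 did, and without scaling 34 did. The calls that ended without scaling were mainly decreases, among them let-7e, miR-26b, miR-10a-5p, both miR-125 members, miR-146a, miR-150, miR-195, miR-497, miR-23a, miR-23b and miR-30a*. With scan day as a block, calls ended for miR-26b, miR-29c, miR-125a-5p, miR-146a, miR-150, miR-200a, miR-429, miR-378, miR-23a, miR-30e, miR-30a*, miR-28 and miR-30b-3p. miR-93, miR-106b, miR-34a, miR-29b, miR-652, miR-500 and miR-378* passed in all of these settings but normexp.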

How the data were processed

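Total RNA from right liver lobes was hybridized to Agilent Rat miRNA V16 arrays in 1 colour (Cy3). The authors deposited fluorescence intensity values of every spot, extracted with Agilent Feature Extraction 10.7.3.1 and background-subtracted, and a table of log2 values normalized between arrays, which was used only as an alternative. From the spots, unmarked spots of a probe were averaged, probes of a miRNA were summed, signals were scaled to the array's 75th percentile, taken from 109 probes that exceeded background everywhere (26 arrays), values under the lowest reliable probe signal of an array were set to that floor, and log2 was taken. Detected miRNAs per array ranged from 118 to 152 and total signal from 38371 to 54256, no miRNA was saturated, and precision is limited by 3 arrays a time. limma 3.58.1 (lmFit, eBayes; R 4.3.3) was fitted to 4 time groups (12 arrays; 8 residual and 1.96 prior degrees of freedom) and to 8 groups of both operations (23 arrays), with Benjamini-Hochberg adjustment over 139 miRNAs. Arrays correlated at 0.944 to 0.991 within a time and at 0.909 to 0.978 between late and early arrays. Slide was a random block through duplicateCorrelation (statmod 1.5.0; correlation 0.134). Named miRNAs were the up to 10 largest increases and decreases among those called, detected on all 12 arrays and not overlapping (10 and 7), called members of the lists, and the 3 smallest p between the operations; those of no list that are named besides were chosen after their values were seen. Members and lists were chosen with earlier results of these data known. The procedure was tested on simulated data. Alternatives were other scalings, backgrounds, floors, filters, blocks, eBayes settings and thresholds, single scan days, and leaving out each array. Python 3.11.15, pandas 2.3.3 and matplotlib 3.10.9 served for tables and figures.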

Additional observations from a re-analysis of the deposited data

Results flagged for a closer look

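The late minus early difference of 12 miRNAs differed between 2/3 PH and 1/3 PH in the test of that difference (limma, adjusted p under 0.05). It was larger after 2/3 PH by 1.23 for miR-93, 0.81 for miR-15b, 1.63 for miR-18a, 0.87 for miR-20b-5p, 1.08 for miR-17-5p, 0.87 for miR-19a, 0.92 for miR-34a, 0.67 for miR-21, 0.57 for miR-106b and 0.65 for miR-7a on the log2 scale. It was -0.52 for miR-26a and -0.35 for miR-10a-5p. miR-17-5p, miR-18a and miR-19a had several early arrays at the floor after both operations, and miR-93 had 1 after each. Leaving out single arrays of the 23 ended the call of miR-10a-5p for 15 of them, of miR-7a for 14, of miR-106b for 13 and of miR-21 for 10, and that of miR-93, miR-15b, miR-18a and miR-26a for none. Of the 8 other ways of computing the level, 7 ended the call of miR-19a and 6 those of miR-21 and miR-106b. The calls of miR-17-5p, miR-20b-5p and miR-7a ended under 5 of the 8. Those of miR-93, miR-34a and miR-10a-5p ended under 4, and those of miR-15b, miR-18a and miR-26a under 3.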

How the results depend on the processing

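The 51 calls late against early became 14 with the 75th percentile over all probes, 9 with a fold limit of 0.5 or 2, 2 with normexp, 24 within the first scan day and 0 within the third (22 unadjusted), and 42 to 53 when 1 array was left out. The 27 calls at 24 hours became 3 with the percentile over all probes, 7 with the fold limit, 1 with normexp, 46 with the software's total gene signal and 46 without adjustment (21 to 31 with 1 array left out). The 52 calls at 36 hours became 24 with the percentile over all probes, 12 with the fold limit, 30 without scaling, 0 with normexp (7 unadjusted), 7 with scan day as a block and 0 within the third scan day (33 to 58 with 1 array left out, 33 without the first 36 hour array). The 12 calls between the operations became 1 with the percentile over all probes, 3 with the fold limit, 0 without scaling (3 unadjusted), 0 with normexp (6), 5 with the deposited log2 values, 27 without adjustment, 1 within the first scan day and 0 within the third (48). With 1 array left out they ranged from 6 to 18, with 6 without either 6 hour array of 1/3 PH, where the lone array left is assumed to vary like the other groups. The 14 calls after 1/3 PH, whose alternatives were chosen after the data were seen, became 1 without scaling, 3 with the percentile over all probes, 8 with quantile normalization, 0 with normexp (8), 7 with miRNAs detected on at least 1 array, 7 with slide as a block, 2 with the fold limit, 0 within the third scan day (49) and 5 to 14 with 1 array left out. The causes were not tested. The normexp setting used an offset of 50 signal units. Of the 51 directions, 51 held under 7 of 8 other ways of computing the level and 50 under quantile normalization, where miR-21 was at 0. Every way used the arrays on which the 51 were chosen. Without scaling the median late difference moved from 0.07 to 0.18, and under normexp or the percentile over all probes the medians at 24 hours moved from 0.05 to -0.26 and -0.21. Signal over background limits the weakest miRNAs, of which 10 called ones touch the floor, and 3 arrays a time limit small differences. No paired analysis between times was possible because each rat gave 1 array at 1 time.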
